A study of Apis mellifera with 8 samples.

Results

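Tsf1 and Vg encode secreted proteins of the honey bee (Apis mellifera) blood, or hemolymph, and each had a higher RNA level in all 4 worker (96hW) than in all 4 queen (96hQ) larval heads. Such an order held for 14.7% of the genes tested. For Vg the counting intervals of the lowest worker head and the highest queen head overlapped. Tsf1 and Vg were chosen by name, as transport proteins that fat body releases, and make up 2 of the 9161 genes that could be paired with transcripts in the files. Each was represented by 1 transcript of the 28739 measured, NM_001011572 (2346 bases) for Tsf1 (gene ID 406078) and NM_001011578 (5441 bases) for Vg (gene ID 406088). The groups were 4 heads of female larvae reared as queens (96hQ) and 4 heads of female larvae reared as workers (96hW), all 96 h old. The study grafted queen larvae into queen cups and took worker larvae from brood frames of their hives, so caste and rearing go together and cannot be told apart. Each library came from the head of a single larva, and poly(A) RNA was sequenced in a way that keeps the strand.

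Transferrin 1, the product of Tsf1, is an iron-binding glycoprotein that circulates in insect hemolymph. It carries iron between tissues and is known from infected insects as a protein that withholds iron from microbes. Vitellogenin, the product of Vg, is the large lipoprotein from which egg yolk is built, and fat body makes it. In adult honey bees vitellogenin is also abundant in nonreproductive workers, where it has been tied to brood food production, to resistance to oxidative stress and to juvenile hormone, with which it stands in mutual suppression. Fat body is the insect counterpart of liver and adipose tissue. According to the study's methods a dissected larval head holds brain, glands, mouthparts, antennae, trachea and cuticle, with only a small number of fat bodies.

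The estimated counts are reads that the authors' tool assigned to each transcript. Their total was 22057972 to 23344818 in the queen libraries and 19139730 to 21848474 in the worker libraries. After TMM scaling, castes were compared by edgeR's quasi-likelihood test over the genes that reached 5 counts in 4 or more libraries, and a gene was called when its adjusted p was under 0.01. The label of the tissue was checked against marker genes. All 3 neuron markers found (Syt1, Abscam and brp) were above 0 TPM in every head, and so were all 4 hexamerin genes that mark fat body. The summed TPM (a level corrected for transcript length and library total) of the neuron markers ran from 27.9 to 55.8 in 96hQ and from 56.3 to 83.1 in 96hW. One of the 3, Abscam, was called higher in 96hW (adjusted p = 0.00725 from edgeR). Of all genes tested, 3.4% were called higher in 96hW and 5.21% higher in 96hQ. The summed TPM of the 9 cuticle markers found, 7 of them above 0 in every head, was 39446 to 70833 in queens and 13992 to 22272 in workers. CPR12 was called higher in 96hQ (queen over worker 2.1 on the log2 scale, with an adjusted p of 0.0018 from edgeR). An unadjusted p under 0.05 from edgeR was found for 6 of the 7 cuticle markers tested and for 3342 of all 8151 genes. No muscle, hemocyte or silk gland marker was called (8 genes found, all above 0 in every head), and the glia marker sought was not matched. The part of these markers in the results on Tsf1 and Vg was not tested. The 96hW replicate 1 stood apart from the other workers in its hexamerins and Vg, and it had the lowest library total. It was also the highest worker in Syt1 (58 TPM, others 36.2 to 40), brp (15.1, others 10.59 to 14.13) and the hemocyte marker PPO (93.9, others 7.91 to 36.4). The same held for all 3 muscle markers, TpnT (2237.7 TPM, others 1259.2 to 1463.5), TpnI (2186.2, others 1096.2 to 1258) and TpnCI (587.3, others 389.7 to 445.5). Abscam in this head lay within the range of the other workers. The fold changes and ratios of Tsf1 and Vg are given with and without this head.

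Tsf1 was among the well expressed genes of every head. Its level in the queen heads was 319 TPM in replicate 1, 106 in replicate 2, 280.4 in replicate 3 and 231 in replicate 4. In the worker heads it was 753 TPM in replicate 1, 652 in replicate 2, 720.1 in replicate 3 and 439.5 in replicate 4. All 4 worker heads lay above all 4 queen heads, and the lowest worker head was 1.38-fold above the highest queen head. The mean was 234 ± 92.5 TPM in 96hQ and 641 ± 141 TPM in 96hW (SD, n = 4 heads each), which is 2.74-fold higher in workers. In RNA of a whole head, fewer cells of a type and less of an RNA per cell cannot be told apart. Ordered by TPM among the 9161 genes, Tsf1 took places 353 to 1162 in queen heads and places 189 to 269 in worker heads.

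Vg was near the bottom of the expressed genes, and its RNA was scarce in both castes. The queen heads had 0.0588 TPM in replicate 1, 0.0952 in replicate 2, 0.0599 in replicate 3 and 0.084 in replicate 4. The worker heads had 0.177 TPM in replicate 1, 1.09 in replicate 2, 1.32 in replicate 3 and 2.54 in replicate 4. The castes did not overlap, but replicate 1 of the workers was 1.86-fold above the highest queen head while the other 3 workers were more than 1 TPM. The mean was 0.0745 ± 0.0181 TPM in 96hQ and 1.28 ± 0.972 TPM in 96hW (SD, n = 4 heads each), a 17.2-fold difference of means. Vg ranked between 8416 and 8477 of 9161 genes by TPM in queen heads and between 7093 and 8319 in worker heads.

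**Figure D1:**
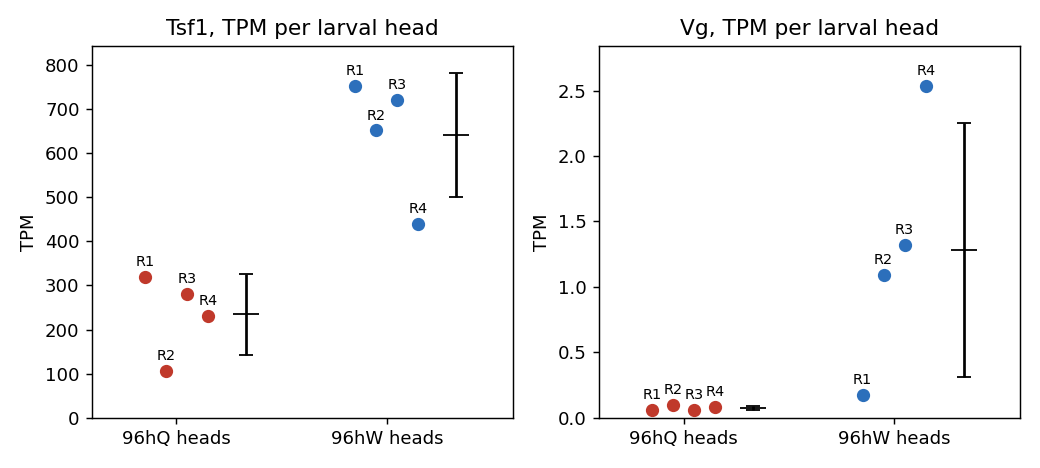
Level of Tsf1 (left) and Vg (right) in TPM on linear axes from 0, with a point for each larval head (R1 to R4 are replicates) and the mean ± SD of each caste beside it. Worker heads sit above queen heads for both genes, Tsf1 from 439.5 to 753 against 106 to 319 TPM and Vg from 0.177 to 2.54 against 0.0588 to 0.0952 TPM.

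The difference in Vg rested on few reads. The estimated counts of Vg were 5, 8, 5 and 7 in queen replicates 1 to 4, which is 25 in all, and 11, 73, 96 and 190 in worker replicates 1 to 4. As CPM, which is the count scaled to a library of 1000000 counts, worker replicate 1 had 0.575 CPM (exact Poisson 95% interval 0.287 to 1.03), and queen replicate 2, the highest queen, had 0.343 CPM (0.148 to 0.675). These intervals overlap, so at this depth the lowest worker could not be told from the highest queen by counting error alone. The other 3 worker heads began at 3.63 CPM (2.85 to 4.57 in replicate 2), clear of every queen interval. For Tsf1, with 3667 to 21478 counts per head, the interval of the lowest worker head (617 to 638 CPM) lay above that of the highest queen head (477 to 495.1 CPM). Intervals cover counting error only, since the reads carry no molecular identifiers. The counts of both genes were whole numbers in all 8 libraries (within 1e-06), whereas 68.7% of the nonzero values in the files were not, because the authors' tool splits reads that fit several transcripts.

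**Figure D2:**
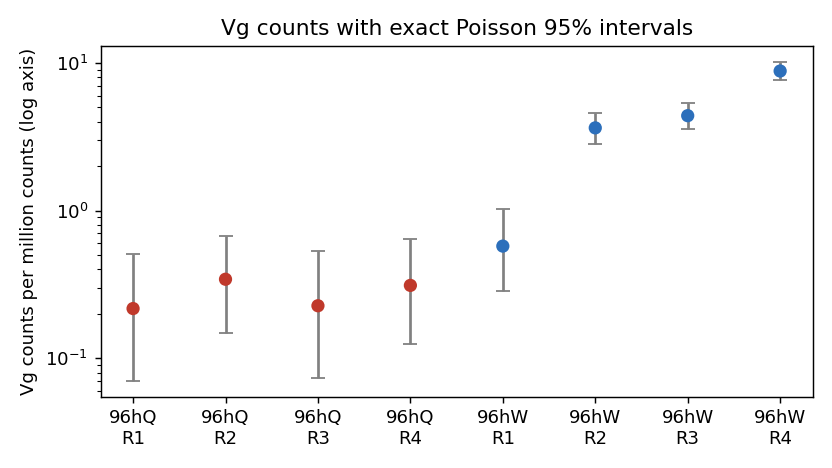
Vg in CPM of each library on a log axis, with exact Poisson 95% intervals (grey bars) for queen heads (red) and worker heads (blue). The interval of 96hW R1 (0.287 to 1.03) overlaps those of the queen heads, and 96hW R2 to R4 lie at 3.63 to 8.82.

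In the comparison of castes over all genes Vg was called higher in 96hW and Tsf1 was not called. The worker mean of Vg was 96.3 ± 77.3 normalized counts and the queen mean 5.92 ± 0.971 (SD, n = 4 heads per caste). Its log2 fold change, worker over queen, was 3.99 with an SE of 0.77 (adjusted p = 0.00977 from edgeR). For Tsf1 the worker mean was 18918 ± 3298 normalized counts and the queen mean 7965 ± 3567, and the log2 fold change was 1.25 with an SE of 0.36 (adjusted p = 0.0355 and unadjusted p = 0.00783 from edgeR). So 1 of the 2 genes was called, where 3.4% of all 8151 genes tested were called higher in 96hW. Of the genes tested, 12 had a fold change further toward workers than Vg, and 211 had one further than Tsf1. At the level of transcripts, where 0.332% of 20768 were called higher in 96hW and 0.891% higher in 96hQ, neither passed, with an adjusted p of 0.0272 for NM_001011578 and 0.0812 for NM_001011572 from edgeR. For both genes the castes did not overlap, with workers higher, which held for 14.7% of the genes tested.

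The adjusted p of Vg from edgeR was just under the threshold of 0.01, and DESeq2 gave it 9.6e-07 (log2 fold change of queen over worker -4.03). With 1 library omitted it passed in 1 of 8 fits, the one without 96hW replicate 1 (log2 fold change 4.36, SE 0.4, adjusted p = 0.00245 from edgeR), and the adjusted p lay between 0.0196 and 0.0304 in the other 7. With the replicate number as a block the adjusted p was 0.0267, and with limma on log2(TPM + 1), where the median log2 fold change of queen over worker over all genes was -0.14, it was 0.0445. Tsf1 was not called in any of the 8 fits with a library left out (adjusted p from 0.0166 to 0.0845 from edgeR), and DESeq2 called it too (adjusted p = 0.00192). Without 96hW replicate 1 its log2 fold change was 1.2 (SE 0.4, adjusted p = 0.0705 from edgeR). Without 96hQ replicate 2, the queen head with least Tsf1, its log2 fold change was 0.98 (SE 0.19) and its adjusted p 0.0166 from edgeR. On TPM alone, the mean log2(TPM + 0.01) was 1.54 higher in workers for Tsf1 and 3.46 higher for Vg (two-sided exact permutation test, p = 0.0286 for each of the 2 genes, the smallest p that 4 against 4 heads allow).

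**Figure D3:**
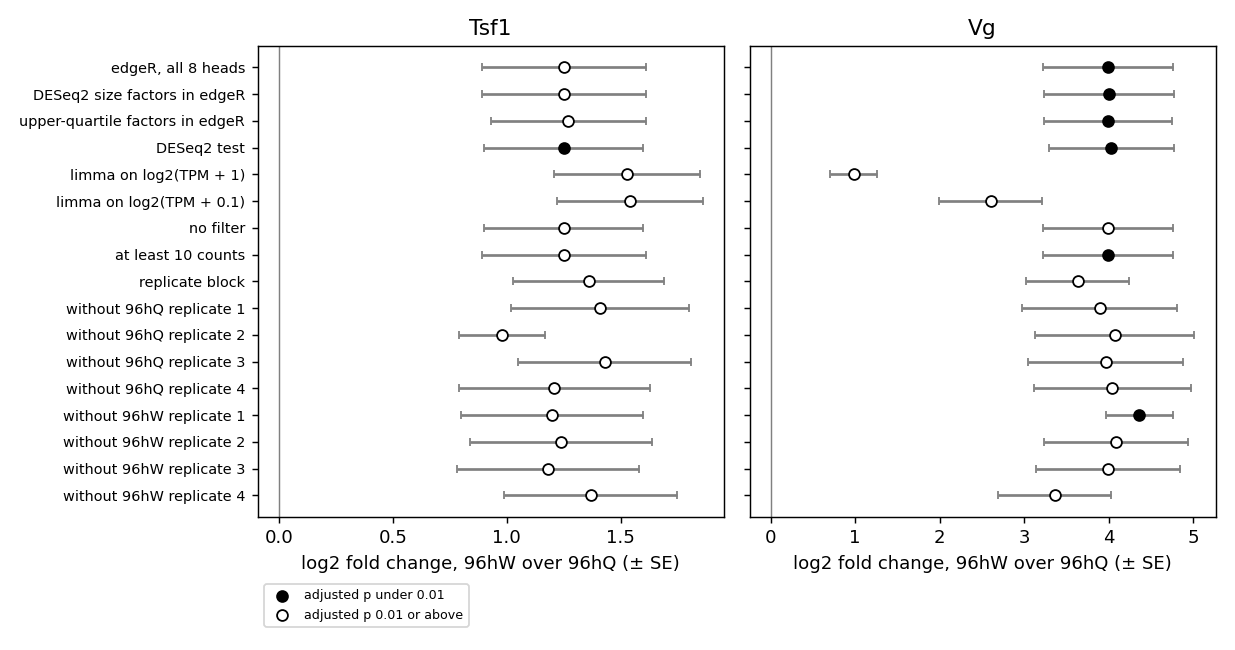
Log2 fold change of worker over queen (± SE) for Tsf1 (left) and Vg (right), summed per gene, under each way of processing the data and with each library left out. Filled points have an adjusted p under 0.01. All values lie to the right of 0, from 0.98 to 1.54 for Tsf1 and from 0.98 (limma on log2(TPM + 1), which compresses low levels) to 4.36 for Vg.

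Tsf1 varied more among queen heads and Vg more among worker heads, a difference in spread that was not tested. The SD of log2(normalized count + 1) of Tsf1 was 0.83 among queen heads, above that of 92% of the genes tested, and 0.27 among worker heads, above that of 74.2%. For Vg it was 0.21 among queen heads, above 54.3% of genes, and 1.69 among worker heads, above 98.7%. Queen heads held 5 to 8 counts of Vg, where counting error is large (exact Poisson 95% interval of 1.62 to 11.7 counts in replicate 1). The 0.21 therefore does not show how alike the queen heads were in Vg. The median SD of all genes was 0.18 in 96hQ and 0.13 in 96hW. The spread of Tsf1 in queens came from replicate 2, which held 106 TPM against 231 to 319 TPM in the other queen heads. The spread of Vg in workers came from replicate 1 at the low end and replicate 4 at the high end, a range of 14.4-fold. Without replicate 1 the SD among workers was 0.7 for Vg, above 95.1% of genes, and 0.31 for Tsf1, above 83.6%, an alternative chosen after the data were seen.

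The worker head with least Vg was the one with most Tsf1. Vg in 96hW replicate 1 was 8.71-fold lower than the geometric mean of the other 3 workers. The hexamerins, storage proteins that fat body secretes into hemolymph before metamorphosis, were lower in this head by a like amount, Hex70a by 8.66-fold, HEX70b by 8.91-fold, Hex70c by 7.98-fold and Hex110 by 8-fold. Tsf1 in the same head was 1.27-fold higher than the geometric mean of the others and was the highest of all 8 heads. Jhe, the esterase that degrades juvenile hormone, had 50.7 TPM in 96hW replicate 1 and between 404.7 and 577 TPM in the other workers. The summed TPM of the 4 hexamerins was 6869.5 in 96hW replicate 1, below all 4 queen heads (7459 to 18921), and ran from 52769 to 62327 in the other 3 workers.

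**Figure D4:**
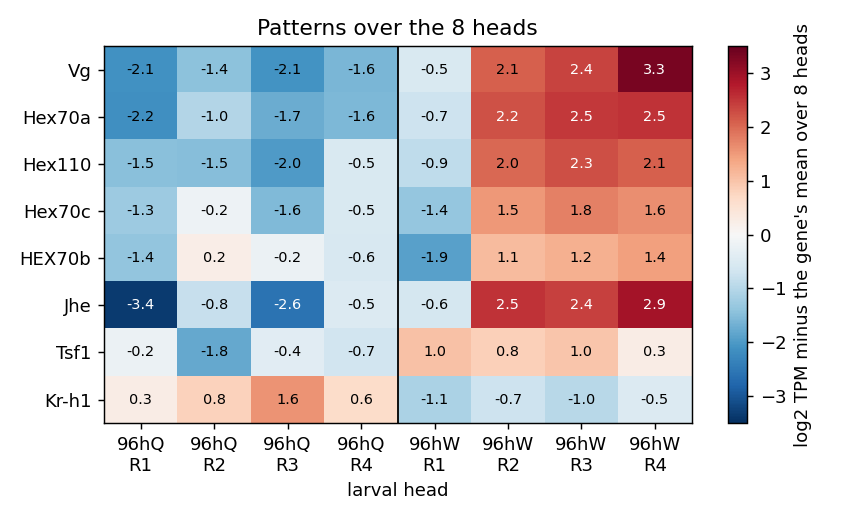
Log2 TPM of 8 genes in the 8 heads, each minus the mean of its gene over the heads (red above the mean, blue below it), with queen heads left of the black line and worker heads right of it. Vg and the hexamerins are high in 96hW R2 to R4 and low in 96hW R1 (Vg -0.53, Hex70a -0.71), whereas Tsf1 is highest in 96hW R1 (1.03) and lowest in 96hQ R2 (-1.8).

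Vg and Tsf1 were set against the summed hexamerins within each head. Where both sides of such a ratio come from fat body, it does not depend on how much fat body RNA the head gave. That source was not tested here, and a change in hexamerin RNA per cell would also move the ratio. The log2 ratio of Vg to hexamerins was -16.95, -17.6, -17.74 and -17.27 in queen replicates 1 to 4 and -15.25, -15.56, -15.48 and -14.58 in worker replicates 1 to 4. The castes did not overlap, and 96hW replicate 1 lay within the range of its caste. Vg in these ratios rests on 5 to 8 counts in queen heads and on 11 in 96hW replicate 1. Its counting error was not carried into the ratios, so they do not settle the order of single heads or the place of 96hW replicate 1. Without that head the difference between castes was 2.18 log2 units. The mean ratio was 2.17 log2 units higher in workers (-15.22 ± 0.44 against -17.39 ± 0.35, SD, n = 4 heads each), a 4.51-fold difference (two-sided exact permutation test, p = 0.0286 and 0.0857 when adjusted over the 3 ratios compared). Which hexamerin stands below the line mattered: workers were higher by 2.67 log2 units against HEX70b, by 1.85 against Hex70c, by 0.89 against Hex110 and by 0.37 against Hex70a. Against Hex70a the castes overlapped, with -11.49 to -11.07 in queens and -11.23 to -10.31 in workers. The ratios to single hexamerins were computed after the data had been seen and were not tested.

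The ratio of Tsf1 to hexamerins showed no such order. Its log2 value was -4.55, -7.48, -5.55 and -5.84 in queen replicates 1 to 4 and -3.19, -6.34, -6.39 and -7.15 in worker replicates 1 to 4. Queen and worker heads overlapped over most of this range, with the highest value in 96hW replicate 1. The means differed by 0.09 log2 units (-5.77 ± 1.76 in 96hW and -5.85 ± 1.22 in 96hQ, SD, n = 4 heads each, two-sided exact permutation test, p = 0.943, also 0.943 when adjusted over the 3), and by -0.77 without 96hW replicate 1. Both SDs exceeded the difference. The log2 ratio of Vg to Tsf1 was 2.08 higher in workers (-9.45 ± 1.92 against -11.54 ± 1.03, exact permutation test, p = 0.0857 and 0.129 adjusted), and 96hW replicate 1, at -12.06, lay among the queen heads. Without it the difference was 2.95 log2 units (exact permutation test, unadjusted p = 0.0571, the smallest that 4 against 3 heads allow).

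**Figure D5:**
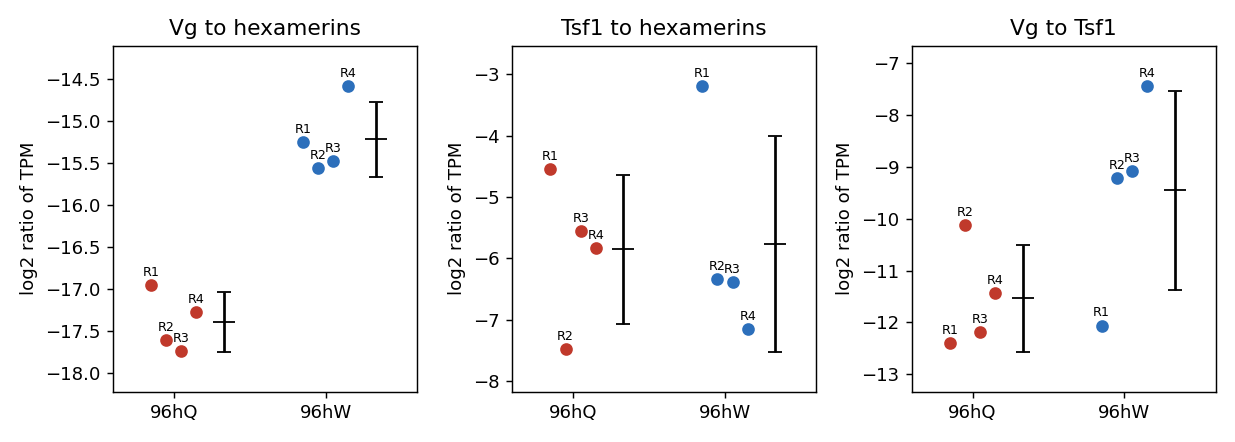
Log2 ratio of TPM within each head for Vg to the 4 summed hexamerins, Tsf1 to the hexamerins and Vg to Tsf1, with a point per head (R1 to R4) and the mean ± SD of each caste. Castes are apart for Vg to hexamerins (-17.74 to -16.95 in queens, -15.56 to -14.58 in workers) and overlap for the other 2 ratios.

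The genes closest in pattern to Tsf1 and to Vg over the 8 heads were sought. Likeness was measured as the root mean square difference between profiles of log2(normalized count + 1), each centred on its mean over the 8 heads, against 8150 other genes. The 5 genes most like Vg were Hex70a (difference 0.31), LOC724126 (0.38), LOC107964857 (0.42), Hex110 (0.57) and LOC725922 (0.57), and Jhe was the 9th. The same 5 genes came first without 96hW replicate 1. With profiles centred within each caste instead, a choice made after the data were seen, Hex70a still came first and 2 of the 5 were shared. LOC724126 and LOC107964857 had between 3.71 and 12.1 normalized counts in queens and between 10.7 and 155.8 in workers, the same low range as Vg.

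The 5 genes most like Tsf1 were LOC411569 (difference 0.22), LOC552357 (0.3), LOC552446 (0.34), the microRNA gene Mir3730 (0.34) and LOC410986 (0.36). Of these, 3 were also among the 5 most alike without 96hW replicate 1, and 2 with profiles centred within each caste. Mir3730 had few reads, with 2.585 to 16.76 normalized counts in queens and 21.95 to 48.33 in workers, and was not called (adjusted p = 0.0565 from edgeR). LOC411569 had 7644, 3772, 8899 and 6490 normalized counts in queen replicates 1 to 4 and 19059, 17912, 20114 and 15950.3 in worker replicates 1 to 4. Like Tsf1 it was lowest in 96hQ replicate 2, and it was called higher in 96hW (log2 fold change of queen over worker -1.45, SE 0.24, adjusted p = 0.00555 from edgeR). Vg was 1.61 log2 units from Tsf1, against a median of 0.91 over all genes, and it stood at place 7802 of 8150 in likeness to Tsf1. Seen from Vg, whose median difference from all genes was 1.96, the same 1.61 put Tsf1 at place 363 of 8150, and at place 267 without 96hW replicate 1. With profiles centred within each caste, Tsf1 was 1.3 from Vg, against a median of 1.06, and stood at place 7517 of 8150. The nearer place thus held only where the difference between castes was part of the profile. As these genes were picked for their likeness, their differences are given as a description.

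The 4 hexamerins had higher means in workers, and 1 of them was called. The list of secreted proteins of fat body held 7 measured genes, Tsf1 and Vg included, and 2 of them, Vg and Hex70a, were called higher in 96hW and none higher in 96hQ, where 3.4% and 5.21% of all genes were called. The count was 4 without 96hW replicate 1 and 0 without any other single library. Apart from Tsf1 and Vg, 1 of 5 genes was called. The median log2 fold change of queen over worker was -1.98 in the list of 7 and 0.0046 over all genes tested. Hex70a averaged 2328 ± 1349 TPM in workers and 190.1 ± 62.1 in queens (log2 fold change -3.51, SE 0.66, adjusted p = 0.00889 from edgeR). The values of Hex110 were 13815 ± 7862 and 1689 ± 774 TPM (-2.93, SE 0.66, adjusted p = 0.0155 from edgeR), and those of Hex70c were 5281 ± 3002 and 1261 ± 549 TPM (-1.98, SE 0.62, adjusted p = 0.0478 from edgeR). HEX70b, the most abundant, had 24206 ± 14155 and 10058 ± 4321 TPM (-1.15, SE 0.66, adjusted p = 0.227 from edgeR). Without 96hW replicate 1 the log2 fold changes were -3.88 for Hex70a, -3.29 for Hex110, -2.35 for Hex70c and -1.52 for HEX70b, with adjusted p from edgeR of 0.000707, 0.00246, 0.00374 and 0.0275. PPO, the hemocyte marker and the last gene of the list, had 47.4 ± 33.6 TPM in queens and 41.3 ± 37 TPM in workers (adjusted p = 0.738 from edgeR). Of the iron transport and storage genes sought by symbol only Tsf1 was matched, and of the receptors for yolk and lipoprotein uptake none was, so neither group is described.

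Among genes of the juvenile hormone and insulin pathways, which are tied to vitellogenin in adult bees, 1 of 6 was called higher in 96hQ and none in 96hW, where 5.21% and 3.4% of all genes were called. Kr-h1, a transcription factor induced by juvenile hormone, had 36.7, 53.6, 92.5 and 47.9 TPM in queen replicates 1 to 4 and 14.4, 18.6, 15.7 and 22.2 TPM in worker replicates 1 to 4. It was called higher in 96hQ, the direction opposite to Vg (log2 fold change of queen over worker 1.91, SE 0.37, adjusted p = 0.00977 from edgeR). The count of the list was 1 without 96hQ replicate 3 and 0 without any other single library. Unlike Vg, Kr-h1 in 96hW replicate 1 was the lowest of all heads. The mean of Jhe was 369 ± 225 TPM in workers and 29.9 ± 23.2 TPM in queens (log2 fold change -3.57, SE 0.87, adjusted p = 0.021 from edgeR, and -3.94, SE 0.65, adjusted p = 0.01002 without 96hW replicate 1). Usp, the partner of the ecdysone receptor, had 106 ± 22.7 TPM in workers and 71.4 ± 17 TPM in queens (adjusted p = 0.121 from edgeR), and ILP-2, an insulin-like peptide, had 60 ± 3.31 TPM in workers and 48.7 ± 6.53 TPM in queens (adjusted p = 0.552 from edgeR). The median log2 fold change of the 6 genes was -0.1.

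Immune genes, the company in which transferrin is known from infected insects, showed no called difference between castes. None of the 7 tested was called by edgeR in either direction, where 5.21% of all genes were called higher in 96hQ and 3.4% in 96hW. An unadjusted p under 0.05 was found for 0 of these 7 and for 3342 of all 8151 genes. The median log2 fold change of the 7 immune genes was -0.22. The largest was that of Apid1 (-3.25, SE 1.47, adjusted p = 0.1345 from edgeR). Apid1 had 21 TPM in 96hW replicate 1, the head with most Tsf1, and 0 to 1.25 TPM in the other heads. Whether the levels of Apid1 and Tsf1 go together was not tested. The peptidoglycan recognition protein PGRP-S3 had 31.5 ± 15.8 TPM in queens and 55.4 ± 23.8 TPM in workers (adjusted p = 0.245 from edgeR), and the antimicrobial peptide gene Def1 had 25.2 ± 7.66 and 33 ± 20.2 TPM (adjusted p = 0.702 from edgeR). Of cact1, an inhibitor in the Toll pathway, there were 35.5 ± 14.4 and 52.3 ± 18.9 TPM (adjusted p = 0.467 from edgeR), and of Dl, its NF-kappaB partner, 33.7 ± 3.07 and 36 ± 4.86 TPM (adjusted p = 0.958 from edgeR).

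Of 8 antioxidant enzymes, 1 was called higher in 96hQ and none in 96hW, where 5.21% and 3.4% of all genes were called. Leaving out 1 library gave 1 or 2 called higher in 96hQ (2 without 96hQ replicate 3). The enzyme called was Trxr-1, thioredoxin reductase, with 369 ± 30.8 TPM in 96hQ and 302.5 ± 17.1 in 96hW (log2 fold change 0.44, SE 0.05, adjusted p = 0.00168 from edgeR). Cat, the catalase that breaks down hydrogen peroxide, had 477 ± 132 and 230.4 ± 23.5 TPM (log2 fold change 1.25, SE 0.25, adjusted p = 0.0105 from edgeR). Sod1, a superoxide dismutase, had 638 ± 53 and 737 ± 60.5 TPM (adjusted p = 0.763 from edgeR), and Gtpx1 had 221 ± 16.3 and 228 ± 10.1 TPM (log2 fold change of queen over worker on counts 0.13, the opposite order, adjusted p = 0.234 from edgeR). The median log2 fold change of the 8 enzymes was 0.07.

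The genes next to Tsf1 and Vg in the Amel_HAv3.1 assembly, used here for gene order only, were looked at after the data had been seen. None passed the threshold, where 3.4% of all genes were called higher in 96hW and 5.21% higher in 96hQ. The nearest tested neighbours of Tsf1 were LOC113218519 (log2 fold change of queen over worker 0.24, SE 0.25, adjusted p = 0.497 from edgeR) and LOC408510 (-0.63, SE 0.5, adjusted p = 0.374 from edgeR). Those of Vg were LOC408817 (1.74, SE 0.7, adjusted p = 0.101 from edgeR) and LOC100577614 (-2.66, SE 0.92, adjusted p = 0.0643 from edgeR). LOC100577614 had at most 17.6 normalized counts in queen heads, 6.44 in 96hW replicate 1 and between 52.9 and 78.4 in the other 3 workers, and the castes overlapped.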

How the data were processed

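Each library is the head of 1 larva. The authors mapped paired-end reads with kallisto (version not given in the sources used here) in strand-specific mode. The deposited estimated counts carry no scaling between libraries. In the deposited TPM the authors' tool divided by transcript length and brought each library to one total. The study's text speaks of Ensembl Metazoa transcripts, but the identifiers deposited are from RefSeq.

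Genes were assigned to 17723 of the 28739 transcripts by accession without version, through a RefSeq table of Amel_HAv3.1, used for names and gene order only. Counts were summed per gene, rounded and passed to edgeR 4.0.16 (R 4.3.3, TMM, 5 or more counts in 4 or more libraries, quasi-likelihood F test, caste as the only term), with Benjamini-Hochberg adjustment over all genes or all transcripts and the study's threshold of 0.01. The study's own tool, sleuth, needs resampled files that were not used here. The SE is the log2 fold change over the square root of F. Normalized counts are scaled to the mean library total. TPM and ratios of TPM were compared by two-sided exact permutation tests (scipy 1.17.1). Of the scripts, only the edgeR fit was tested on simulated data.

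Members and lists were chosen with earlier results of these data known. Genes named are Tsf1, Vg, their neighbours, up to 4 genes per list with the highest mean TPM (Kr-h1 and Jhe among them), and the 5 genes most alike in pattern to each. Lists were matched by symbol, and since 622 of 9161 genes carry a symbol that is not a LOC number, lists are incomplete. The neighbours, the other centring of profiles and the ratios to single hexamerins were added after the data were seen. PPO, Abscam, brp, TpnT, TpnI, TpnCI, CPR12 and Apid1 were named after their values were seen. Relatives of both proteins by sequence were not looked for. Alternatives were DESeq2 1.42.0, limma 3.58.1 on log2(TPM + 1) and log2(TPM + 0.1), other size factors and filters, a threshold of 0.05, a replicate block, and leaving out every library in turn. Replicates are different animals. The p-values of edgeR, DESeq2 and limma rest on the spread between heads, moderated with that of the other genes. Those of the exact tests rest on the arrangements of heads.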

Additional observations from a re-analysis of the deposited data

Results flagged for a closer look

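Among 58 sets of 4 heads (the TPM of genes named by rule and the 3 ratios, in each caste), 4 had a head far from the other 3, by a test that flags about 1 set in 20 by chance. LOC410986, one of the genes most like Tsf1, had 14 TPM in 96hQ replicate 2 and between 30.6 and 33.5 TPM in the other queen heads, the head in which Tsf1 was lowest too. Usp had 96.8 TPM in 96hQ replicate 1 (others 61.6 to 64.9) and 139.8 TPM in 96hW replicate 1 (others 90.3 to 97.6). Sod1 had 647 TPM in 96hW replicate 1, and the other workers between 758 and 778. Neither Tsf1 nor Vg had such a head in either caste.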

How the results depend on the processing

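Tsf1 and Vg were higher in 96hW under every alternative run. As log2 fold changes of queen over worker summed per gene, Tsf1 passed 0.01 with DESeq2 (-1.25) and passed the looser threshold of 0.05 (-1.25), and Vg no longer passed on log2(TPM + 1) (-0.98), on log2(TPM + 0.1) (-2.6), without a filter (-3.99, adjusted p = 0.0102 from edgeR) and with the replicate block (-3.63). As transcripts, Tsf1 passed with DESeq2 (-1.22), and Vg with DESeq2 (-3.99) and at 0.05 (-3.96). With 1 library left out, the fold change per gene ranged from -1.43 to -0.98 for Tsf1 and from -4.36 to -3.36 for Vg, and that of the transcripts from -1.38 to -0.95 and from -4.34 to -3.32. The difference in log2 TPM of workers over queens ranged from 1.19 to 1.72 for Tsf1 and from 2.97 to 4.22 for Vg. Exact tests of 4 against 3 heads cannot go below p = 0.0571. The log2 ratio of Vg to hexamerins moved to 0.89 with Hex110 alone and to 0.37 with Hex70a alone, was 2.67 with HEX70b alone, and ranged from 1.96 to 2.32 with 1 library left out. That of Tsf1 to hexamerins turned to -0.05 on normalized counts and ranged from -0.77 to 0.55, and that of Vg to Tsf1 from 1.41 to 2.95.

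Over all genes, 425 were higher in 96hQ and 277 in 96hW with edgeR, 1035 and 858 with DESeq2, 89 and 145 on log2(TPM + 1), 93 and 134 on log2(TPM + 0.1), 1196 and 993 at 0.05, and 10 and 0 with the replicate block. The share of called genes higher in 96hQ was 60.5% with edgeR and 38% on log2(TPM + 1). With 1 library left out these counts ranged from 100 to 446 and from 42 to 328. Over transcripts, 185 were higher in 96hQ and 69 in 96hW, 1343 and 946 with DESeq2, 43 and 42 on log2(TPM + 1), 43 in 96hQ on log2(TPM + 0.1), 120 and 39 without a filter, 990 and 563 at 0.05, 1 and 0 with the replicate block, and 2 to 115 and 0 to 32 with 1 library left out. Across genes, the deviations of samples with the same replicate number had correlations from -0.058 to 0.0863. For samples with different numbers they ran from -0.0744 to 0.106. The labels do not say what a replicate number stands for, and a shared batch was not tested. The list of fat body secreted proteins had 0 to 4 genes higher in 96hW with 1 library left out, juvenile hormone and insulin genes 0 to 1 higher in 96hQ, and antioxidant enzymes 1 to 2 higher in 96hQ. The causes of these shifts were not tested. The few reads of Vg limit its precision in queen heads.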
